A study of Homo sapiens with 7 samples.

Results

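CD44, ITGA6, THY1, SOX9, BMI1, KLF5 and MYC are surface proteins and regulators that are widely used as markers or drivers of stem-like tumour cells, and their RNA levels were followed here in clones of the human bladder cancer line UM-UC-3. Rows were taken by gene symbol, whatever their values, but the symbols were chosen with earlier results of these data known. All 7 symbols were found, in 8 rows of the 13872 listed, since BMI1 labels 2 rows with different Ensembl identifiers. RNA was measured in 3 groups of cultures. The first comprised the ALDH-high clones H1, H6 and H10, isolated by ALDEFLUOR, an assay in which cells fluoresce according to their aldehyde dehydrogenase (ALDH) activity, and described by the submitters as stem-like or tumour-initiating. The second comprised the ALDH-low clones L1, L3 and L8, described as not stem-like, and the third was 1 wild-type UM-UC-3 culture kept as a control. Each clone gave 1 library, so n = 3 per group counts clones. All of them descend from 1 established line, and no treatment is named for any group.

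CD44 is the main receptor for the matrix polymer hyaluronan, ITGA6 encodes the alpha 6 integrin subunit that binds laminin, and THY1 encodes the small surface glycoprotein CD90, held in the membrane by a lipid anchor. Antibodies against these proteins are used to sort stem-like cells from many epithelial tumours, and in the urothelium CD44 and ITGA6 mark basal cells. SOX9, KLF5 and MYC are transcription factors, and BMI1 is a subunit of Polycomb repressive complex 1, which places ubiquitin on histone H2A and keeps developmental genes silent.

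Values are CPM, read counts scaled to library size, as deposited. The column sums lay between 967084.9 and 1019855.1, with the highest sums in H1 and in wild type. The values ran in steps of 0.0393 to 0.041 CPM, the worth of 1 read, so that a count of 0 (floor of 3 reads) allows up to 0.118 to 0.123 CPM. Such floors cover counting error only. The sort was visible in ALDH1A1, a main source of ALDEFLUOR activity, with 96.32, 33.37 and 42.2 CPM in H1, H6 and H10, against 0, 0.08 and 0 CPM in L1, L3 and L8 and 37.85 CPM in wild type. Of 21 urothelial markers 5 were among the listed genes, and KRT18, KRT8 and KRT7 exceeded 1 CPM in all 7 libraries. The summed level of these 5 was 499.72 to 739.99 CPM among ALDH-high clones, 243.28 to 519.72 CPM among ALDH-low clones and 755.24 CPM in wild type. That sum was mostly KRT18 (means of 502 CPM in ALDH-high and 302 CPM in ALDH-low clones) and KRT8 (136 and 81.6 CPM). KRT7 (1.99 and 5.3 CPM) and PPARG (0.87 and 3.78 CPM) went the other way, and FOXA1 had 0.593 and 0.503 CPM. The defining uroplakin genes were not among the genes analysed here. Of the markers of other cell types, 0 of 9 for fibroblasts, 1 of 7 for endothelium (TIE1, 0.87 to 5.05 CPM among ALDH-high clones, 0.56 to 3.36 CPM among ALDH-low clones and 23.54 CPM in wild type) and 1 of 8 for leukocytes (CD68, 84.32 to 130.8 CPM among ALDH-high clones, 64.36 to 92.88 CPM among ALDH-low clones and 139.04 CPM in wild type) were listed, and their part in the results was not tested.

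The first question was whether the markers are higher in the clones described as stem-like. None of the 7 rows tested passed as higher or lower, KLF5 was too low to be tested, and 5 of the 7 had every ALDH-high clone below every ALDH-low clone. These 5 were CD44, ITGA6, THY1, SOX9 and the first BMI1 row, while MYC, the second BMI1 row and KLF5 had overlapping groups. For SOX9 and BMI1 the gap between groups was less than 1 read, and THY1 was tested only because of its ALDH-low values. Over all 12705 genes tested, 26.1% had groups that did not overlap, and 12.1% had ALDH-high clones lower without overlap. Genes were tested with limma on log2(CPM + 1), with Benjamini-Hochberg adjusted p over all tested genes and a call below 0.05. By that rule 1.34% of genes were called (0.645% higher and 0.693% lower) and 0 of the 7 marker rows. At an unadjusted p under 0.05 stood 3 rows, ITGA6, THY1 and SOX9, all of them lower, beside 19.7% of all genes in either direction and 9.31% lower. The tested rows had a median difference, ALDH-high minus ALDH-low, of -0.75 log2 units, and all tested genes had 0.0036. Taken alone, a gene cannot reach p below 0.1 in a two-sided exact permutation test of 3 against 3.

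**Figure D1:**
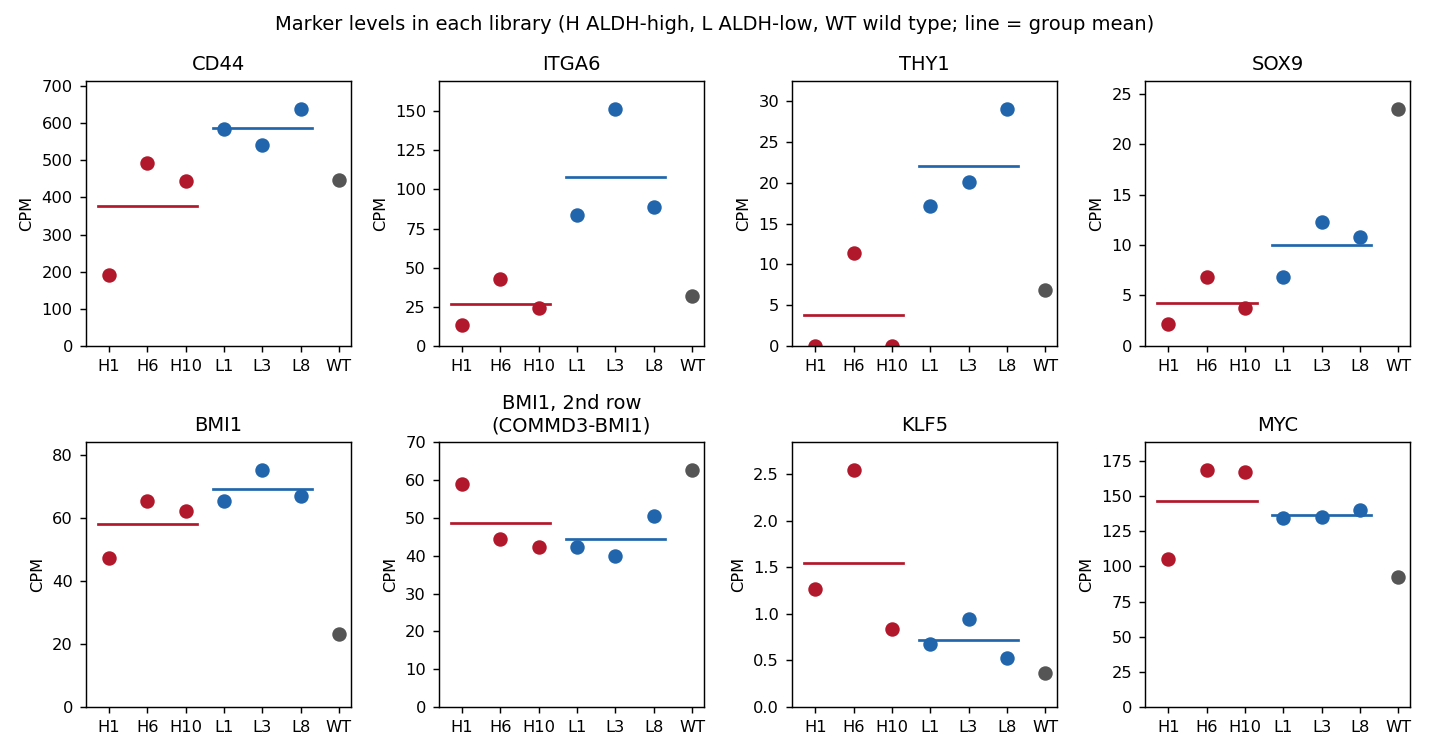
CPM of each marker row in the 7 libraries, ALDH-high clones in red, ALDH-low clones in blue and wild type in grey, with a line at each group mean and every axis starting at 0. CD44, ITGA6 and THY1 show all ALDH-high clones clearly under the ALDH-low clones, SOX9 and BMI1 nearly touch at H6 and L1, and wild type lies above all clones for SOX9 and the second BMI1 row and below them for the first BMI1 row, KLF5 and MYC.

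Among the surface proteins, CD44 (ENSG00000026508, chromosome 11) had 192.05, 492.71 and 443.2 CPM in H1, H6 and H10, against 583.52, 541.43 and 637.36 CPM in L1, L3 and L8 and 448.14 CPM in wild type. H1 stood apart from all other libraries, and the highest ALDH-high clone was 48.72 CPM below the lowest ALDH-low clone. The group means were 376 ± 161 CPM among ALDH-high and 587 ± 48.1 CPM among ALDH-low clones (SD, n = 3 each). The difference of -0.75 log2 units (SE 0.33, unadjusted 95% confidence interval -1.51 to 0.01) did not pass with limma (adjusted p = 0.259). Without H1 it was -0.33 log2 units (adjusted p = 0.251). Wild type lay among the ALDH-high values and under all ALDH-low values.

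ITGA6 (ENSG00000091409, chromosome 2) had 13.15, 42.73 and 24.48 CPM in H1, H6 and H10, against 83.36, 151.16 and 88.92 CPM in L1, L3 and L8 and 31.81 CPM in wild type. Every ALDH-low clone was above every other library, and L3 was the highest of all. The means were 26.8 ± 14.9 CPM among ALDH-high and 108 ± 37.6 CPM among ALDH-low clones (n = 3 each). With -2.06 log2 units (SE 0.40, interval -2.99 to -1.14) ITGA6 came closest of the 7 rows to the threshold, at a limma adjusted p of 0.0553. It passed when H6 was left out (-2.47 log2 units, adjusted p = 0.0377) and when libraries were weighted by how closely they follow the fit (arrayWeights) (-1.78 log2 units, adjusted p = 0.0241), and leaving out any other clone gave adjusted p values up to 0.174.

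THY1 (ENSG00000154096, chromosome 11, minus strand) had 0, 11.37 and 0 CPM in H1, H6 and H10, against 17.2, 20.11 and 29 CPM in L1, L3 and L8 and 6.91 CPM in wild type. It was the only marker with libraries at 0: H1 and H10 had no read, which allows up to 0.119 and 0.12 CPM. ALDH-high clones were thus split, with H6 nearer to the ALDH-low clones than to its own group, and wild type fell between. THY1 passed the filter for testing, at least 1 CPM in at least 3 clones, only through the ALDH-low clones, where it is high. In bulk RNA, fewer expressing cells and less RNA per cell cannot be told apart. The difference was -3.29 log2 units (SE 0.88, interval -5.33 to -1.25, limma adjusted p = 0.108). Because of the zeros its size depended on the pseudocount, with -1.84 log2 units at 5 CPM and -5.48 at 0.1 CPM. Without H6 the ALDH-high group was left with 2 libraries, both at 0, and the difference was -4.50 log2 units. THY1 was then called (limma adjusted p = 0.0013), but as it passed the filter only through the ALDH-low clones, this call supports nothing.

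**Figure D2:**
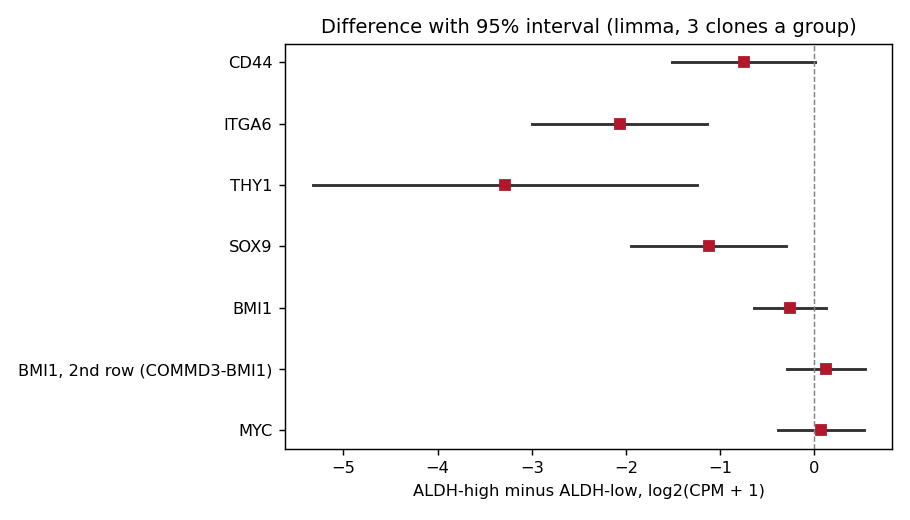
Difference of ALDH-high minus ALDH-low clones on log2(CPM + 1) for the 7 rows tested, as squares with unadjusted 95% confidence intervals from limma (horizontal axis, log2 units; dashed line at 0). The intervals of ITGA6, THY1 and SOX9 lie below 0, that of CD44 ends at 0.01, and those of both BMI1 rows and MYC span 0; none of the 7 passed after adjustment over all genes.

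The transcription factor SOX9 (ENSG00000125398, chromosome 17), which keeps progenitor cells in several epithelia, had 2.19, 6.85 and 3.76 CPM in H1, H6 and H10, against 6.88, 12.26 and 10.8 CPM in L1, L3 and L8 and 23.46 CPM in wild type. The groups were apart by only 0.03 CPM, less than 1 read, between H6 and L1. Wild type was the highest library, 3.29 times the mean of the 6 clones. The means were 4.27 ± 2.37 CPM among ALDH-high and 9.98 ± 2.78 CPM among ALDH-low clones, a difference of -1.12 log2 units (SE 0.36, interval -1.95 to -0.30, limma adjusted p = 0.148).

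The first BMI1 row (ENSG00000168283, chromosome 10) had 47.25, 65.38 and 62.12 CPM in H1, H6 and H10, against 65.4, 75.11 and 67 CPM in L1, L3 and L8 and 23.3 CPM in wild type. Its groups too were apart by less than 1 read (0.02 CPM), and the difference of -0.26 log2 units (SE 0.17, interval -0.64 to 0.13, limma adjusted p = 0.439) leaves room for a level in ALDH-high clones between 0.643 and 1.09 times that in ALDH-low clones. The wild-type level was 0.366 times the mean of the clones, and lower than in any of them.

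The second row labelled BMI1 (ENSG00000269897) behaved differently, with 58.97, 44.41 and 42.4 CPM in H1, H6 and H10, against 42.4, 39.99 and 50.6 CPM in L1, L3 and L8 and 62.59 CPM in wild type. GENCODE 29 names this identifier COMMD3-BMI1, a readthrough gene that starts at the neighbouring gene COMMD3, whose protein takes part in endosomal sorting. All 7 values were identical to those of the COMMD3 row (ENSG00000148444), so the reads cannot be told apart from COMMD3 reads and the row is no separate measure of BMI1. Its difference was 0.12 log2 units (SE 0.18, interval -0.29 to 0.54, limma adjusted p = 0.748), and without H1 it was -0.02. Across the 7 libraries the 2 BMI1 rows had a Pearson r of -0.839, a description only, and H1 and wild type, the lowest libraries for the first row, were the highest for the second.

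The 250 bases before the RefSeq starts of BMI1 and ITGA6 are shown because BMI1 has a start of its own, apart from that of COMMD3, and ITGA6 had the smallest p of the markers. Both are on the plus strand of GRCh38.p14, at chr10:22320849-22321098 and chr2:172427086-172427335, and neither overlaps an exon in GENCODE 29. Capitals mark CACGTG, the E-box that dimers of MYC and MAX bind, which reads the same on both strands.
BMI1: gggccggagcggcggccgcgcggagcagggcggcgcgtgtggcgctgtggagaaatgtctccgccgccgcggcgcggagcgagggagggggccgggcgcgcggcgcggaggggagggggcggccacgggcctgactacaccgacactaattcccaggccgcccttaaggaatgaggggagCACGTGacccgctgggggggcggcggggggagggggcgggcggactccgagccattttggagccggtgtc
ITGA6: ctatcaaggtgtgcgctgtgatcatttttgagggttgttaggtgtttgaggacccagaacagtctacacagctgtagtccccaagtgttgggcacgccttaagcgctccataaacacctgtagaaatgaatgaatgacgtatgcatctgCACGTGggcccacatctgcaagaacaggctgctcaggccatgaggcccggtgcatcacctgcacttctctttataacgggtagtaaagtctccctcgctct
The BMI1 window is rich in CpG, with 35 CpG sites and 76.8% G and C, while the ITGA6 window has 8 CpG sites and 50.8% G and C; the median over all 35116 RefSeq windows of this length is 11 CpG sites. CACGTG occurs once in each window and in 6.34% of all of them. A second RefSeq start is listed for each gene, with 54 CpG sites and 91.6% G and C in that BMI1 window and 30 and 71.6% in that ITGA6 window. Both exceed the median, so the contrast between the 2 genes depends on the start taken. Neither of those windows holds CACGTG. Nor do the CD44 window and the 2 KLF5 windows in the same table, while the COMMD3-BMI1 window holds 1.

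KLF5 (ENSG00000102554, chromosome 13), a zinc finger factor of proliferating epithelium, was near the lower end of the table, with 1.27, 2.54 and 0.84 CPM in H1, H6 and H10, against 0.68, 0.94 and 0.52 CPM in L1, L3 and L8 and 0.36 CPM in wild type. The groups overlapped at H10 and L3. With 2 clones at 1 CPM or more KLF5 missed the filter and was not tested. Its mean was 1.55 ± 0.884 CPM among ALDH-high and 0.713 ± 0.212 CPM among ALDH-low clones, a difference of 0.53 log2 units, and with all listed genes tested the limma adjusted p was 0.344.

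MYC (ENSG00000136997, chromosome 8), which drives ribosome production and cell growth, had 105.11, 168.36 and 167 CPM in H1, H6 and H10, against 134.68, 134.86 and 139.84 CPM in L1, L3 and L8 and 92.28 CPM in wild type. The ALDH-low clones were nearly level, and the ALDH-high clones lay on both sides of them, H1 below and H6 and H10 above. The means were 147 ± 36.1 CPM among ALDH-high and 136 ± 2.93 CPM among ALDH-low clones, and the difference of 0.07 log2 units (SE 0.20, interval -0.38 to 0.53, limma adjusted p = 0.868) turned negative, to -0.04, without H6 or without H10. The interval covers ratios from 0.767 to 1.44.

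In the marker rows, on the log2 scale, the ALDH-high clones differed among themselves more than the ALDH-low clones did. For all 7 rows tested the SD of log2(CPM + 1) was wider among ALDH-high clones than among ALDH-low clones, as it was for 50.3% of all tested genes. The 7 include the second BMI1 row, which is no separate measure of BMI1. In CPM the SD was wider among ALDH-low clones for ITGA6 (37.6 against 14.9) and SOX9 (2.78 against 2.37), and among ALDH-high clones for the other tested rows. The coefficient of variation was 42.9% in ALDH-high and 8.19% in ALDH-low clones for CD44, 55.7% and 34.9% for ITGA6 and 24.6% and 2.15% for MYC.

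H1 was the lowest of the 6 clones for CD44, ITGA6, SOX9, BMI1 and MYC, 5 of the 7 rows tested against 21.7% of all tested genes, and shared the lowest place with H10 for THY1. In the same 5 rows H10 was above H1 and below H6, which held for 21.1% of all tested genes. ALDH1A1 had the reverse, with its highest level in H1 and its lowest ALDH-high level in H6. These patterns were picked out after the values were seen, and with 3 clones they describe these cultures only. H1 also had the highest column sum of all libraries, and its part in these patterns was not tested.

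**Figure D3:**
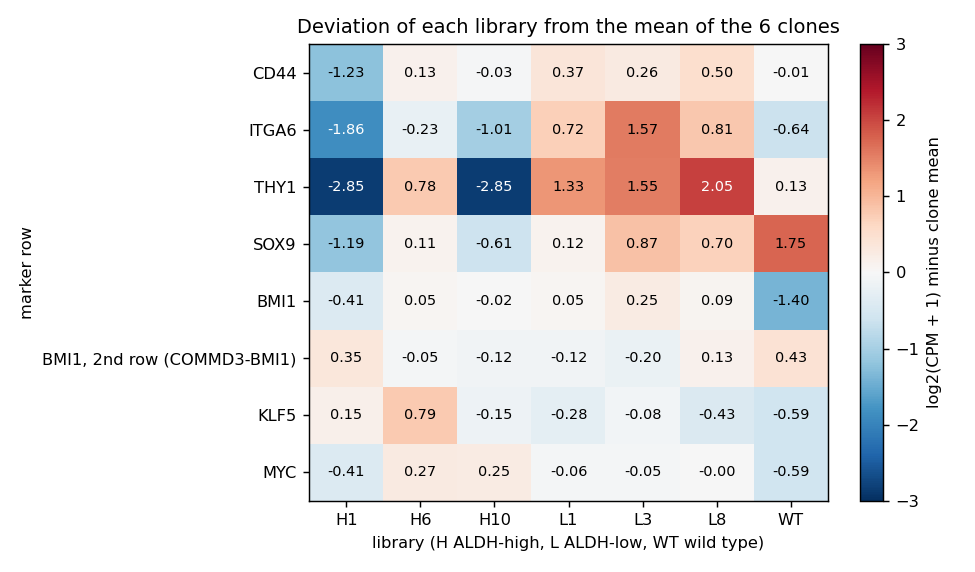
Log2(CPM + 1) of each marker row (vertical axis) in each library (horizontal axis) minus the mean of the 6 clones, from blue (lower) to red (higher). In the H1 column CD44, ITGA6, THY1, SOX9, BMI1 and MYC are all negative, from -0.41 to -2.85, and the wild-type column runs from 1.75 for SOX9 to -1.40 for BMI1.

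Across the 6 clones the levels of CD44, ITGA6, THY1, SOX9 and the first BMI1 row followed each other, with Pearson r of log2(CPM + 1) between 0.767 and 0.964 over the 10 pairs, highest for ITGA6 and SOX9. These r describe 6 libraries that fall into the ALDH-high and ALDH-low groups, and the 5 rows are those whose groups do not overlap. With wild type added the range was -0.398 to 0.885, and SOX9 and BMI1 then had the negative value.

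Wild type, set beside the clones without a test because it is 1 library, was outside the range of the clones for 5 of the 8 rows: above it for SOX9 and the second BMI1 row, below it for BMI1, KLF5 and MYC. Of the 7 rows tested this was so for 4, and of all tested genes for 48.0% (22.6% above and 25.4% below). Only SOX9 and the first BMI1 row lay more than 1 log2 unit from the clone mean, as did 12.6% of all tested genes. For the surface markers CD44, ITGA6 and THY1 the wild-type level was inside the ALDH-high range and below every ALDH-low clone.

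Genes that work with each marker were read from 12 lists with 196 distinct tested genes. Of these 3 rose, 1 fell and the rest did not pass, which is 2.04% called against 1.34% of all genes. The 3 that rose include HAPLN1, which was tested only through the ALDH-high clones, so nothing is drawn from the difference between these shares. The tested genes include 5 with no clone of 1 group at 1 CPM, which passed the filter only through the other group and so had to differ: HAPLN1 and LAMA1 through the ALDH-high clones, and ITGA4, L1CAM and KLF14 through the ALDH-low clones. Their values are a description, and their p values support nothing, also where a count includes them. In each list, the number at an unadjusted p under 0.05 is to be read beside 19.7% of all genes. Splicing factors of CD44 were on its list, but the tested genes included none of them. Among 17 tested ligands and partners of CD44, 1 rose, 0 fell and 16 did not pass, with a median of 0.13 log2 units. At an unadjusted p under 0.05 stood 7 of them, 5 lower, beside 19.7% of all genes in either direction and 9.31% lower. Without overlap 6 were lower and 1, HAPLN1, was higher, beside 12.1% of all genes lower and 26.1% in either direction. Both counts of lower genes include HAS3, which had 1 ALDH-high and 3 ALDH-low clones at 1 CPM or more. Like THY1 it passed the filter through the ALDH-low clones, so these counts are a description. Without L3 the list had 2 calls, the second being SDC1 at -1.19 log2 units (adjusted p = 0.0454). The gene that passed was HAPLN1, one of those tested only through the ALDH-high clones, a link protein that fastens proteoglycans to hyaluronan, with 128.95, 20.03 and 50 CPM in H1, H6 and H10, against 0.04, 0 and 0 CPM in L1, L3 and L8 and 35.13 CPM in wild type (5.68 log2 units, a size that depends on the pseudocount, limma adjusted p = 0.00414). EZR, RDX and MSN, which tie the tail of CD44 to actin, did not pass. MSN averaged 192 ± 69.4 CPM among ALDH-high and 288 ± 65.2 CPM among ALDH-low clones (adjusted p = 0.288), and like CD44 it was lowest in H1.

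Of 13 tested partners and laminin ligands of ITGA6, 0 rose and 0 fell by limma, with 6 at an unadjusted p under 0.05, beside 19.7% of all genes, and a median of -0.25 log2 units. Without L3 there was 1 call, LAMB3 at -2.57 log2 units (adjusted p = 0.0278). In L3 LAMB3 had 1.65 CPM, inside the ALDH-high range of 1.11 to 3.68 CPM, against 16.96 and 18.4 CPM in L1 and L8. ITGB1, the beta 1 subunit that pairs with alpha 6, had 602.46, 707.45 and 561.68 CPM in H1, H6 and H10, against 852.56, 932.02 and 757.36 CPM in L1, L3 and L8 and 896.92 CPM in wild type. Its groups did not overlap, and its -0.44 log2 units (SE 0.16) gave a limma adjusted p of 0.182. ITGB4, the hemidesmosome partner of alpha 6, was not among the genes analysed here. LAMA1, a laminin chain, averaged 3.27 ± 2.16 CPM among ALDH-high and 0.303 ± 0.146 CPM among ALDH-low clones and was tested only through the ALDH-high clones. DST, which anchors keratin filaments at hemidesmosomes, averaged 41.1 ± 6.08 CPM among ALDH-high and 70.1 ± 15.8 CPM among ALDH-low clones (adjusted p = 0.11).

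Of 6 other integrin alpha subunits tested, 0 rose, 1 fell and 5 did not pass, with a median of -0.89 log2 units. All but ITGAE were lower without overlap, which held for 12.1% of all tested genes. ITGA4 is counted there although it was tested only through the ALDH-low clones, so the count is a description. The subunit that fell was ITGA3, which like alpha 6 binds laminin, with 25.63, 39.73 and 36.48 CPM in H1, H6 and H10, against 81.52, 82.34 and 64.64 CPM in L1, L3 and L8 and 60.35 CPM in wild type (-1.16 log2 units, SE 0.20, limma adjusted p = 0.0406). It lost its call when any clone was left out, with adjusted p from 0.053 to 0.154, and with a filter at 5 CPM and without the variance trend. ITGA2, ITGA5 and ITGAV, named after their values were seen, had adjusted p of 0.117, 0.133 and 0.159.

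**Figure D4:**
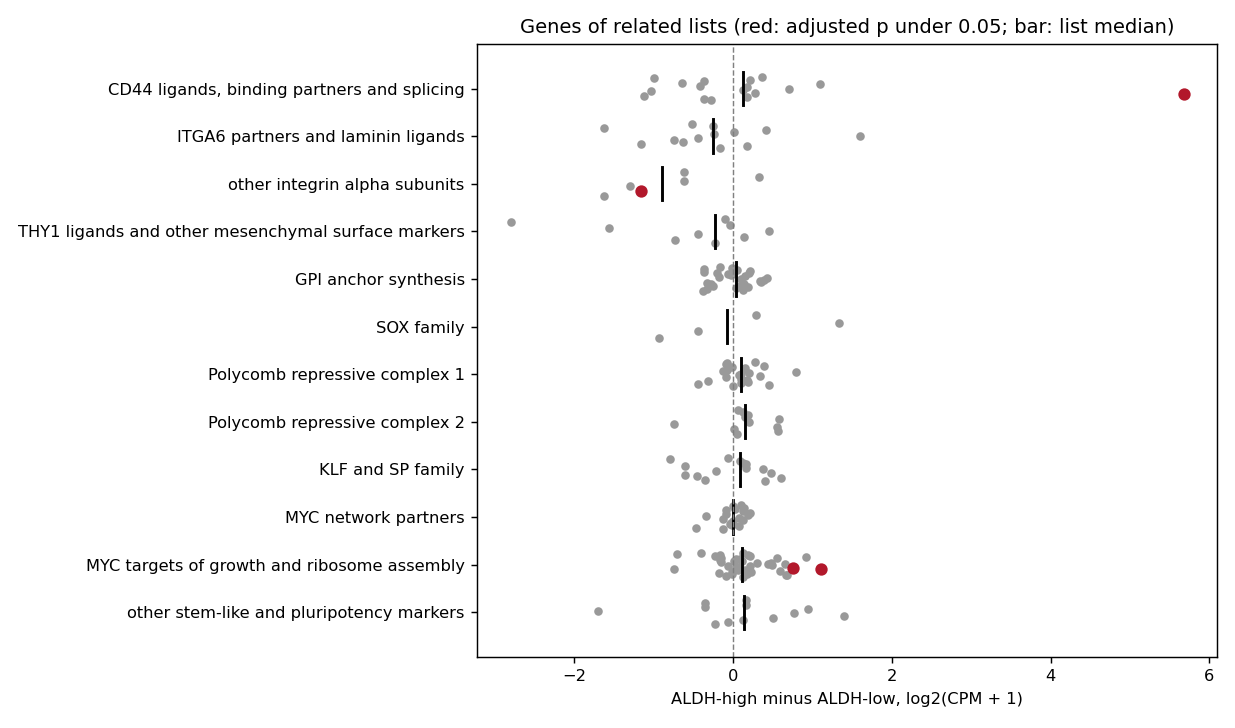
Difference of ALDH-high minus ALDH-low clones on log2(CPM + 1) (horizontal axis) for each tested gene of the 12 lists (rows), with genes at a limma adjusted p under 0.05 in red and the list median as a black bar. The red points are HAPLN1 at 5.68, ITGA3 at -1.16, and IMPDH2 at 1.11 and MCM4 at 0.76 among the MYC targets.

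Of 9 THY1 ligands and other mesenchymal surface markers tested, 0 rose and 0 fell by limma, with a median of -0.23 log2 units. At an unadjusted p under 0.05 stood 2, L1CAM and CAV1, beside 19.7% of all genes, and the p value of L1CAM supports nothing. L1CAM, a neural adhesion molecule, had 0.72, 0.62 and 0.24 CPM in H1, H6 and H10, against 18.4, 2.4 and 16.36 CPM in L1, L3 and L8 and 1.68 CPM in wild type, a difference of -2.79 log2 units. It was tested only through the ALDH-low clones, and without L3 it was the 1 call of the list (adjusted p = 0.0035), which supports nothing. CAV1, the coat protein of caveolae, averaged 151 ± 51.9 CPM among ALDH-high and 242 ± 30.5 CPM among ALDH-low clones (adjusted p = 0.159). The 27 tested genes that build the lipid anchor by which THY1 is held had 0 calls by limma, 1 at an unadjusted p under 0.05 and a median of 0.04 log2 units. Their smallest p values were those of PIGT, at 109 ± 3.65 CPM in ALDH-high and 140 ± 15.0 CPM in ALDH-low clones, and PIGL, at 26.3 ± 0.915 and 19.6 ± 4.54 CPM in the same order (adjusted p of 0.204 and 0.265).

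The 4 tested relatives of SOX9 had 0 calls by limma, 2 at an unadjusted p under 0.05 and a median of -0.07 log2 units. SOX4, a progenitor factor of many tissues, went the other way from SOX9, with 6.2, 9.11 and 3.8 CPM in H1, H6 and H10, against 0.64, 2.55 and 2.76 CPM in L1, L3 and L8 and 14.07 CPM in wild type (1.33 log2 units, SE 0.40, adjusted p = 0.131). SOX12 averaged 36.9 ± 16.4 CPM among ALDH-high and 65.9 ± 9.10 CPM among ALDH-low clones (adjusted p = 0.19). SOX4, like SOX9, was highest in wild type.

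The 23 tested subunits of Polycomb repressive complex 1 besides BMI1 had 0 calls by limma, 0 at an unadjusted p under 0.05 and a median of 0.11 log2 units. The catalytic subunits RNF2 and RING1 averaged 18.4 ± 1.77 and 41.7 ± 5.22 CPM among ALDH-high clones and 16.3 ± 1.75 and 37.6 ± 3.56 CPM among ALDH-low clones (adjusted p of 0.65 and 0.662), and RING1 shares its 7 values with another row. The smallest p values in the list were those of SCMH1 and BCORL1 (adjusted p of 0.339 and 0.403). Polycomb repressive complex 2, which places the methyl mark on histone H3 that the first complex can read, had 11 tested subunits with 0 calls by limma, 3 at an unadjusted p under 0.05 and a median of 0.15 log2 units. The smallest p values were those of PHF1 at 0.58 and JARID2 at -0.74 log2 units (adjusted p of 0.177 and 0.238).

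The 15 tested members of the KLF and SP family besides KLF5 had 0 calls by limma, 4 at an unadjusted p under 0.05 and a median of 0.09 log2 units. The 4 stand beside 19.7% of all genes and include KLF14, which was tested only through the ALDH-low clones and supports nothing. SP3, a factor of GC-rich promoters, had 26.03, 28.57 and 28.68 CPM in H1, H6 and H10, against 43.92, 58.53 and 44.84 CPM in L1, L3 and L8 and 20.1 CPM in wild type (-0.79 log2 units, SE 0.17, adjusted p = 0.0654). KLF6 averaged 121 ± 17.7 CPM among ALDH-high and 184 ± 21.7 CPM among ALDH-low clones (adjusted p = 0.108).

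For MYC, 20 tested partners and regulators had 0 calls by limma, 0 at an unadjusted p under 0.05 and a median of 0.001 log2 units. MAX, its obligate partner, averaged 95.2 ± 13.8 CPM among ALDH-high and 97.4 ± 24.9 CPM among ALDH-low clones (adjusted p = 0.976). RUVBL1, a helicase of chromatin complexes, had the smallest p value (adjusted p = 0.448). Of 40 MYC targets of growth and ribosome assembly, all tested, 2 rose, 0 fell and 38 did not pass, with a median of 0.12 log2 units. At an unadjusted p under 0.05 stood 10 of them, 1 lower, beside 19.7% of all genes in either direction and 9.31% lower. Without overlap 10 were higher and 1 lower, beside 26.1% of all genes in either direction and 12.1% lower. IMPDH2, the rate-limiting enzyme of guanine nucleotide synthesis, had 324.06, 292.55 and 268.48 CPM in H1, H6 and H10, against 149.8, 139.14 and 119.68 CPM in L1, L3 and L8 and 328.88 CPM in wild type (1.11 log2 units, SE 0.15, limma adjusted p = 0.0187). It lost its call without H6, H10, L1 or L8 (adjusted p up to 0.0881). MCM4, part of the helicase that opens replication origins, rose by 0.76 log2 units (adjusted p = 0.0406) and kept its call only without H1 when clones were left out (adjusted p up to 0.168), and it also lost it with a filter at 5 CPM and without the variance trend.

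Of 12 other stem-like and pluripotency markers tested, 0 rose and 0 fell by limma, with 3 at an unadjusted p under 0.05 and a median of 0.14 log2 units. HES1, a Notch target that holds progenitors undifferentiated, had 7.51, 17.36 and 13.2 CPM in H1, H6 and H10, against 5.56, 2.99 and 3.64 CPM in L1, L3 and L8 and 12.67 CPM in wild type. Its groups did not overlap, with ALDH-high clones above (1.40 log2 units, SE 0.33, adjusted p = 0.0824). Without H1 it was called (1.71 log2 units, adjusted p = 0.048), and without L3 LGR4 was (-2.76 log2 units, adjusted p = 0.043). In L3 LGR4 had 0.27 CPM, inside the ALDH-high range of 0.24 to 1.15 CPM, against 17.48 and 6.2 CPM in L1 and L8. CTNNB1, the Wnt effector beta-catenin, averaged 102 ± 18.2 CPM among ALDH-high and 70.9 ± 1.56 CPM among ALDH-low clones (adjusted p = 0.145).

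Likeness of pattern was measured as Pearson r of log2(CPM + 1) over the 7 libraries, as a description, and the 3 genes with the highest r are named per marker. For CD44 these were CST3 (0.985), TCEA2 (0.970) and KLF11 (0.963), and for ITGA6 SLC4A3 (0.997), GPC1 (0.986) and SSFA2 (0.982). SLC4A3 followed ITGA6 with 1.43, 3.16 and 2.32 CPM in H1, H6 and H10, against 4.68, 5.81 and 4.76 CPM in L1, L3 and L8 and 2.6 CPM in wild type. For THY1 they were RNPEPL1 (0.977), ZNF782 (0.975) and SCD5 (0.966), none of which fell to 0 in H1 or H10. SOX9 was most like LIX1L (0.982), UBALD2 (0.965) and DNAJC3-AS1 (0.963). BMI1 was most like PIGQ (0.996), LMNB2 (0.994) and EHMT2 (0.991), and MYC most like USF2, SMARCC1 and RAB11FIP2 (each 0.996), all of them lowest in wild type and next lowest in H1. KLF5 was most like LAMTOR1 (0.956), SHMT1 (0.948) and RACGAP1 (0.944). These r rest on 7 libraries, of which 6 fall into the ALDH-high and ALDH-low groups.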

How the data were processed

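RNA of 7 UM-UC-3 cultures was sequenced, and the deposited table gives CPM rounded to 2 decimals for 13872 genes. Per the submitters' processing notes, BWA 0.5.9 was used, and hg19 and mm9 are listed as builds with no role given. Column names carry the name of CAGEr, a package for 5′-end tags, but library type and counting are not given in the sources used here, so levels are not compared between genes. The lowest of the per-gene maxima was 0.52 CPM, which shows an earlier filter, and 1017 genes share all 7 values with another gene.

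ALDH-high and ALDH-low clones were compared with limma 3.58.1 in R 4.3.3 on log2(CPM + 1) (eBayes with trend, two-sided) over 12705 genes, those reaching 1 CPM in 3 or more of the 6 clones. The fit was tested on simulated data drawn with the same setting of spread for every gene. The spread of the marker rows differed from row to row, so that test does not give the power for them. The log2(CPM + 1) scale understates the change of low genes. Replicates are clones of 1 line, so p-values weigh a group difference against the spread between clones, as moderated by eBayes. They do not extend beyond that line. The markers and lists were chosen with earlier results of these data known. Named genes are the markers, the genes called in each list or else the 2 with the smallest p, direct partners, and the 3 genes most like each marker. A gene that this rule names is not reported here. Where a symbol labels 2 rows of a list (ITGB3 and SOX7), 1 row was counted, the one sharing its values with the fewest others or else the lower identifier, a choice made after the values were seen. Alternatives were pseudocounts of 0.1 and 5, other filters, scalings and variance settings, 1 gene per set of identical values, a fit that also holds wild type, and the omission of each clone. Count models had been planned on reads recovered from the CPM steps. They were not run, because after rounding 2 columns did not give whole reads closely enough. Promoter sequences are from RefSeq (GRCh38.p14), where 5 names matched, and GENCODE 29 gave names and chromosomes by identifier.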

Additional observations from a re-analysis of the deposited data

How the results depend on the processing

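The call on the 7 marker rows tested was 0 and became 1 with library weights (ITGA6) and 2 without H6 (ITGA6, and THY1 from 2 ALDH-high libraries at 0), with a range of 0 to 2 when single clones were left out. The count over all genes was 170. It became 86 with a filter at 5 CPM and 700 with library weights, and leaving out single clones gave 34 to 173 (57 without H6, 34 without H10, 44 without L1 and 37 without L8). With library weights ITGA6 was at -1.78 log2 units (adjusted p = 0.0241). Leaving out single clones gave -2.47 to -1.65 log2 units for ITGA6, -4.50 to -2.68 for THY1, -1.004 to -0.326 for CD44, -1.46 to -0.81 for SOX9 and -0.34 to -0.11 for BMI1, all of them with the direction kept. The second BMI1 row ranged from -0.023 to 0.218 and turned to -0.013 with library weights and to -0.023 without H1. MYC ranged from -0.04 to 0.30 and was negative without H6 (-0.042) and without H10 (-0.036). KLF5, which was not tested, ranged from 0.26 to 0.73, and a pseudocount of 0.1 gave 0.92. The cause of these shifts was not tested. Without L3 the lists gave 2 calls for CD44 partners (1 with all clones) and 1 each for ITGA6 partners, THY1 ligands and other stem-like markers (0 with all clones), the last also 1 without H1. The integrin alpha list had 0 calls without any one clone, and the MYC targets had 1 without L3 and 0 without H6, H10, L1 or L8. With median-ratio scaling and with quantile normalization the MYC targets had 3 calls, against 2 in the main fit. The added call was RRP9 (limma adjusted p = 0.0474 and 0.0411). CD44, SOX9, MYC and both BMI1 rows had adjusted p above 0.05 in every alternative run. Median-ratio scaling and quantile normalization moved the median of all genes to -0.0092 and 0.0143 log2 units and turned the direction of none of the 7 tested rows. The planned count models on recovered reads were not run. No paired analysis was possible because the groups share only clone number 1, which names a clone and not a pair. Below about 0.12 CPM, 3 reads, levels could not be resolved, which bears on THY1 in H1 and H10.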
